A study of Homo sapiens with 12 samples.

Results

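The genes described here are the 10 that carry glucose into the cell and through the fructose phosphate step: the glucose transporter gene SLC2A1, the hexokinase genes HK1 and HK2, the phosphofructokinase genes PFKL, PFKM and PFKP, the genes PFKFB2, PFKFB3 and PFKFB4, and the fructose bisphosphatase gene FBP1. They are 10 of 58735 genes in 2 deposited RNA-seq tables. The list was set by name around FBP1, which was selected on its fall in SK/EPI against SK-BR-3 cells, so the values of the members in that comparison are given as a description with no p-value, and calls of the fit are counted there only beside those of all genes. The BCRP siRNA comparison was tested, although parts of it were also known when the list was made.

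SK-BR-3 is a long-established human line of breast carcinoma cells with an amplified HER2 gene. SK/EPI is a single line derived from it by long culture in rising concentrations of epirubicin, an anthracycline. Only this derived line is analysed here, so resistance and other histories of that line cannot be told apart. SK/EPI-siNC and SK/EPI-siBCRP are SK/EPI cells transfected for 48 h with a control siRNA or with an siRNA against BCRP (ABCG2), the drug efflux transporter that the study investigates. All 4 groups therefore share the SK-BR-3 origin, and 3 of them the resistant background. Each group had 3 libraries, said to come from triplicate preparations, and p-values measure the spread between these.

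Glucose enters most cells through GLUT1, the product of SLC2A1, and is trapped as glucose 6-phosphate by a hexokinase. Phosphofructokinase then makes fructose 1,6-bisphosphate, the committed step of glycolysis, and FBP1 runs that step backwards as a control enzyme of gluconeogenesis. The PFKFB proteins are bifunctional: they make and remove fructose 2,6-bisphosphate, which activates phosphofructokinase and inhibits FBP1. Loss of FBP1 is known from several carcinomas, and SLC2A1, HK2, PFKFB3 and PFKFB4 are textbook targets of hypoxia-inducible factor (HIF).

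FBP1 (ENSG00000165140) lies on the minus strand at chr9:94603133-94640249 of GRCh38. Sequences upstream of 4 start sites are shown, because FBP1 differed most of the members between the lines and because SLC2A1, HK2 and PFKFB3 are known HIF targets that were lower in both comparisons. PFKFB4, also a known HIF target, was lower in SK/EPI but called higher after BCRP siRNA. Its entry, which held 1 GCGTG and no ACGTG, is not shown. The calls of HK2 and PFKFB4 after BCRP siRNA were lost in several alternative fits, given below. HK2 and PFKFB3 have 2 entries each, and the entry with more ACGTG matches is shown. They are the 250 bases before a RefSeq start site of the GRCh38.p14 promoter table, read 5′ to 3′ on the strand of the gene. Capitals mark ACGTG and GCGTG, the 2 core forms of the HIF response element, found on either strand (CACGTG holds ACGTG on both).
FBP1, chr9:94639519-94639768, minus strand: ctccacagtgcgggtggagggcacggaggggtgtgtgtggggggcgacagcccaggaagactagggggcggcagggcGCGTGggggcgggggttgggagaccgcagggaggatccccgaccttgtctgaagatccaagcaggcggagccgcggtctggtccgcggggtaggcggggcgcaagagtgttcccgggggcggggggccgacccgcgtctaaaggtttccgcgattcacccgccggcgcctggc
SLC2A1, chr1:42958869-42959118, minus strand: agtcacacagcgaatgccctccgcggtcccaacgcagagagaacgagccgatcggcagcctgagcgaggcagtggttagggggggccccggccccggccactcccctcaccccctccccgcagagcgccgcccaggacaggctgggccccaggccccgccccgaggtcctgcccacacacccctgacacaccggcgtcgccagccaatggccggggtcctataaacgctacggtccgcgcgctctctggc
HK2, chr2:74834920-74835169, plus strand: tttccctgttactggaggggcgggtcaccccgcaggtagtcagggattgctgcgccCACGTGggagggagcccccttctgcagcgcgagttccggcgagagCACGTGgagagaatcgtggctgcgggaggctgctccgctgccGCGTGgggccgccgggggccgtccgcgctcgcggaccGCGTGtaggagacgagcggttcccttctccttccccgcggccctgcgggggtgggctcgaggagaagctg
PFKFB3, chr10:6202682-6202931, plus strand: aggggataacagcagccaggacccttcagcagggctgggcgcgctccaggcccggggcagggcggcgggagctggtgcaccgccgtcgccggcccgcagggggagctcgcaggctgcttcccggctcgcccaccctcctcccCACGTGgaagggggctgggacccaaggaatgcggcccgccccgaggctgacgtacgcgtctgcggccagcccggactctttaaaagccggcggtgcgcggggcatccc
The FBP1 stretch held 1 GCGTG and no ACGTG, and 72.8% of its bases were G or C, with 26 CpG dinucleotides, against a median of 58% and 11 over all promoters of the table. This does not set FBP1 apart: the SLC2A1, HK2 and PFKFB3 stretches shown had 72.4%, 71.6% and 74.4%, with 24, 29 and 26 CpG dinucleotides. The HK2 stretch held 6 matches counted by strand, and the PFKFB3 stretch held the palindrome CACGTG, while the entries of these genes that are not shown held 3 matches and 1. The SLC2A1 stretch held none. Of 26 promoter entries matched to 9 members by symbol, 11 held a match. Among all 35116 promoters of the table, 43.2% held a match of either form, 18.5% ACGTG and 32.2% GCGTG. Counted by member, 8 of the 9 had at least 1 entry with a match, all but SLC2A1. Several members have many entries, so the count by member cannot be set beside the share over promoters. A match is a description of letters only. For PFKFB2 no promoter is printed.

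Library depth, as reads assigned to genes, was 15830381 to 19051182 in SK-BR-3, 17249081 to 18179410 in SK/EPI, 17078952 to 20545811 in SK/EPI-siNC and 17538094 to 20346162 in SK/EPI-siBCRP. The tables state no unit. Their values were read as FPKM, reads scaled by the exon length of the gene and by library size. That length is of all annotated exons merged and can differ from that of the transcripts expressed. Rankings and shares across genes depend on it. All 8 markers of a luminal HER2 line (ERBB2, GRB7, EPCAM, KRT8, KRT18, KRT19, TFAP2C and GATA3) averaged at least 1 FPKM in every group. Their levels differed: in SK/EPI 3 were called lower, such as ERBB2 (658.9 to 133.1 FPKM), and 4 higher, such as KRT18 (357.8 to 600.6 FPKM). Over all tested genes 37.0% were lower and 37.9% higher. After BCRP siRNA 7 were called lower and 1 higher, beside 18.7% and 19.4% over all tested genes. The 6 fibroblast markers summed to between 1.36 and 1.96 FPKM in every library, with 1 or 2 of them (LUM, DCN) at 0 throughout each group. The 6 leukocyte markers summed to 1.39 to 1.77 FPKM in SK-BR-3, 27.1 to 28.9 in SK/EPI, 7.26 to 8.27 in SK/EPI-siNC and 8.74 to 9.60 in SK/EPI-siBCRP, nearly all of it CD14, with PTPRC at most at a mean of 0.0503 FPKM. The 4 endothelial markers summed to 6.70 to 6.99, 27.0 to 28.1, 13.9 to 14.1 and 22.3 to 22.5 FPKM in the same order, nearly all of it CDH5. The part of these genes in the results was not tested. ABCG2, the target of the siRNA, stood at 32.5, 32.7 and 33.7 FPKM in SK/EPI-siNC and at 2.84, 3.47 and 2.91 in SK/EPI-siBCRP (limma adjusted p = 5.93e-07). In the other table it stood at 0.0220 to 0.0750 FPKM in SK-BR-3 and 32.7 to 35.9 in SK/EPI.
The siRNA that the study lists for this RNA-seq is a 25-base duplex whose upper strand matches the coding sequence of ABCG2 across the junction of exons 7 and 8 (chr4:88115054-88118128 with the intron, minus strand) in 2 of the 4 ABCG2 transcripts of GENCODE 29:
siBCRP upper strand: gggauacuuugaaucagcugguuau
siBCRP lower strand: auaaccagcugauucaaaguauccc

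The question of the first comparison was how the epirubicin-resistant line differed from its parent. FBP1 was a strongly expressed gene in SK-BR-3 cells and was close to absent from the reads in SK/EPI cells, and the genes of glucose uptake and of first phosphorylation, SLC2A1 and HK1, were several times lower. PFKP, PFKFB3 and PFKFB4 were lower by between 2.58 and 3.30 times, HK2 and PFKL by about 1.4 times, and PFKM and PFKFB2 had overlapping values. Of the 10 members, 8 were called lower at an adjusted p under 0.05, 0 higher and 2 neither, in a comparison in which 74.9% of 15823 tested genes were called, 37.9% higher and 37.0% lower. This comparison chose FBP1, so nothing is read from these counts. The median log2 difference was -1.06 over the members and 0.01 over all tested genes. In bulk RNA, fewer cells with a transcript and less of it per cell cannot be told apart.

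**Figure D1:**
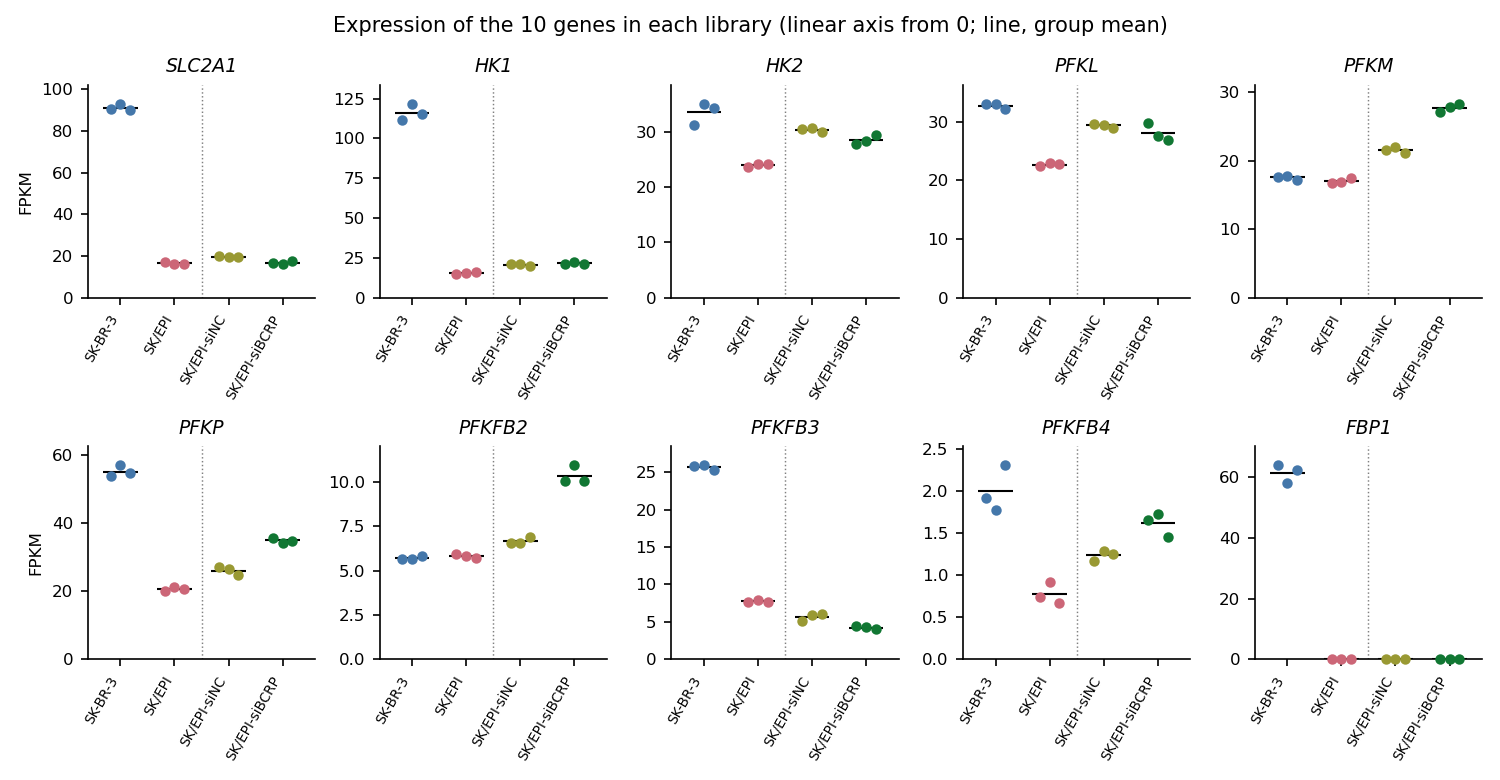
Expression of each of the 10 genes in FPKM (vertical axis, linear from 0) in the 3 libraries of each of the 4 groups (points), with the group mean as a line and a dotted line between the 2 tables. FBP1 sits between 58.2 and 63.9 FPKM in SK-BR-3 and below 0.2 FPKM in the 9 other libraries, while PFKM and PFKFB2 are highest in SK/EPI-siBCRP.

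FBP1, which hydrolyses fructose 1,6-bisphosphate, stood at 63.9, 58.2 and 62.3 FPKM in the 3 SK-BR-3 libraries and at 0.0880, 0.0955 and 0.0921 in the 3 SK/EPI libraries. These levels rest on 1764, 1829 and 2064 reads against 3 reads in each SK/EPI library. The ratio was 669 times, with an exact 95% counting interval from 352 to 1464 that covers counting error only. On the log2(FPKM + 1) scale the difference was -5.84 (SE 0.05), which understates the change of a gene near 0 FPKM. It was -8.33 with a pseudocount of 0.1 FPKM and -9.08 with limma's voom on the reads. In SK-BR-3 the FBP1 level was between 54.0% and 61.2% of the summed FPKM of the 3 phosphofructokinase genes, and in SK/EPI between 0.149% and 0.157%. These percentages rest on merged exon lengths, 1739 bases for FBP1 and 4836 to 8926 for the phosphofructokinase genes.

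FBP1 remained at that low level in the transfected cells. It had 2, 6 and 0 reads in the SK/EPI-siNC libraries and 3, 4 and 5 in the SK/EPI-siBCRP libraries, or 0.0504, 0.181 and 0 FPKM against 0.0886, 0.102 and 0.149 FPKM. The groups overlapped, and the gene was below the minimum for testing in that table. Over 8 and 12 reads, the level after BCRP siRNA was 1.51 times that with control siRNA, with an exact 95% counting interval from 0.567 to 4.25. A return of FBP1 towards its SK-BR-3 level was not seen in any of these 6 libraries, and a change within that interval was not detectable at this depth.

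The muscle isozyme gene FBP2 was low in all groups, at mean levels of 0.188 FPKM in SK-BR-3, 0.521 in SK/EPI, 0.853 in SK/EPI-siNC and 0.609 in SK/EPI-siBCRP. It was tested only in the siRNA table, with a log2 difference of -0.20 (95% interval -0.52 to 0.12, limma adjusted p = 0.289).

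The 3′ end of FBP1 overlaps PCAT7, an antisense transcript of the plus strand at chr9:94555054-94603990, which covers 16.3% of the exon bases of FBP1. The library kit does not mark strand, so reads from the shared bases cannot be told apart. PCAT7 stood at 0.662, 0.947 and 0.640 FPKM in SK-BR-3 and at 1.88, 2.02 and 1.53 in SK/EPI, with no overlap, a log2 difference of 0.68 (SE 0.09) and a limma adjusted p of 0.000248. After BCRP siRNA its log2 difference was -0.13 (95% interval -0.35 to 0.09, limma adjusted p = 0.313).

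Among the 8 genes tested within 1 Mb of FBP1, 5 were lower in SK/EPI, 1 was higher and the other 2 passed in neither direction. Over all tested genes 37.0% were lower and 37.9% higher. Their median log2 difference was -0.41. On the log2(FPKM + 1) scale MFSD14B was the lowest, from 26.6 to 13.1 FPKM (log2 difference -0.97, SE 0.06, limma adjusted p = 2.06e-06). C9orf3 went from 5.16 to 2.68 FPKM (-0.74, SE 0.06, limma adjusted p = 1.3e-05). FANCC, a Fanconi anemia gene farther out on the same side as C9orf3, had -0.10 (SE 0.05, limma adjusted p = 0.112). PTCH1, the Hedgehog receptor gene, fell from 1.04 to 0.477 FPKM (-0.46, SE 0.06, limma adjusted p = 0.000186). The differences of the neighbours spanned -0.97 to 0.68, where that of FBP1 was -5.84. This scale understates changes of genes at a few FPKM or less, PTCH1 among them, so the span of the neighbours is narrowed by it.

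**Figure D2:**
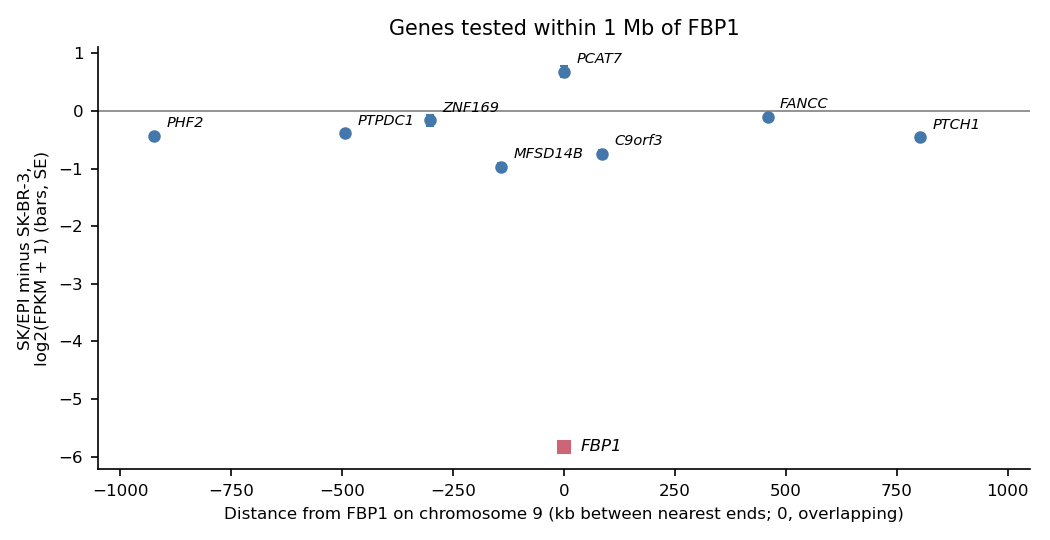
Difference in log2(FPKM + 1) between SK/EPI and SK-BR-3 (vertical axis, bars are SE) against distance from FBP1 in kb on chromosome 9 (horizontal axis) for the 8 neighbours tested (circles) and FBP1 (square). The neighbours lie between -0.97 (MFSD14B) and 0.68 (PCAT7), and FBP1 lies at -5.84.

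The genes most like FBP1 over the 12 libraries, by the smallest Euclidean distance in log2(FPKM + 1), were DSCAM-AS1 (0.65), BCAS1 (0.79), GALNT17 (1.13), CPE (1.13) and GPR160 (1.99). All 5 averaged between 29.2 and 54.2 FPKM in SK-BR-3 and at most 0.392 FPKM in each of the other groups. That pattern follows from the choice, which picked genes close to FBP1 in these same libraries. The likeness is over libraries of 2 tables that may have been scaled separately, and none of the 5 lies on chromosome 9.

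SLC2A1 (ENSG00000117394, chr1:42925375-42959176, minus strand), the gene of the basal glucose transporter GLUT1, stood at 90.4, 93.1 and 90.0 FPKM in SK-BR-3 and at 16.9, 16.4 and 16.1 in SK/EPI. The mean was 5.54 times as high in SK-BR-3 (log2 difference -2.40, SE 0.03). Its level in the siRNA table was 20.1, 19.6 and 19.5 FPKM with control siRNA and 16.43, 15.95 and 17.42 with BCRP siRNA. The groups did not overlap, and the log2 difference was -0.24 (SE 0.04, limma adjusted p = 0.00173).

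HK1 (ENSG00000156515, chr10:69269984-69401884, plus strand), the broadly expressed hexokinase gene, was the most abundant member in SK-BR-3 at 112, 122 and 115 FPKM. It stood at 14.8, 15.3 and 15.9 FPKM in SK/EPI, 7.58 times lower (log2 difference -2.84, SE 0.04). In the siRNA table HK1 stood at 21.10, 21.08 and 20.02 FPKM against 21.4, 22.3 and 21.3 after BCRP siRNA. These values did not overlap but were not called, with a log2 difference of 0.06 (95% interval -0.01 to 0.13, limma adjusted p = 0.166).

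HK2 (ENSG00000159399, chr2:74833981-74893359, plus strand), the isozyme gene induced in many tumours, was at 31.2, 35.1 and 34.4 FPKM in SK-BR-3 and 23.7, 24.2 and 24.1 in SK/EPI (log2 difference -0.47, SE 0.05). With control siRNA it stood at 30.64, 30.72 and 30.005 FPKM and after BCRP siRNA at 27.9, 28.4 and 29.5. The groups did not overlap and the log2 difference was -0.09 (SE 0.03, limma adjusted p = 0.0396). Of the 6 fits without 1 library, this call was kept in that without SK/EPI-siBCRP replicate 3 (limma adjusted p = 0.0208) and was lost in the other 5 (0.0600 to 0.111). It was also lost with no filter on low genes (0.0831).

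The make-up of hexokinase transcripts is shown by shares within each library, which do not depend on its scaling. The share of HK2 in the summed FPKM of HK1 and HK2 was 22.4% ± 0.54 (SD, n = 3) in SK-BR-3 and 61.0% ± 0.68 in SK/EPI. It was 59.5% ± 0.42 in SK/EPI-siNC and 56.9% ± 1.09 in SK/EPI-siBCRP, a difference of -2.59 points with no overlap (two-sided exact permutation test, p = 0.1, the smallest that 3 libraries against 3 allow). The summed level was 149.8 ± 7.07, 39.3 ± 0.838, 51.2 ± 1.01 and 50.3 ± 0.809 FPKM in the same order.

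Of the phosphofructokinase genes, PFKP (ENSG00000067057, chr10:3066333-3137712, plus strand), the platelet type, was highest by FPKM in SK-BR-3 at 53.8, 56.9 and 54.6. By reads PFKL was ahead of PFKP there, at 15474 against 14130 summed over the libraries. PFKP stood at 20.1, 21.1 and 20.7 FPKM in SK/EPI (log2 difference -1.38, SE 0.03). PFKL (ENSG00000141959, chr21:44300051-44327376, plus strand), the liver type, stood at 33.0, 33.0 and 32.2 FPKM against 22.4, 22.9 and 22.8 (-0.51, SE 0.03). PFKM (ENSG00000152556, chr12:48105139-48146404, plus strand), the muscle type, stood at 17.6, 17.8 and 17.2 FPKM against 16.8, 16.9 and 17.5, which overlapped (-0.04, SE 0.03, and 0.02 with the mitochondrial genes left out of the scaling). PFKM shares 8.58% of its exon bases with SENP1 on the opposite strand.

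After BCRP siRNA PFKP and PFKM were higher, and PFKL was not called. PFKP stood at 27.0, 26.4 and 24.6 FPKM with control siRNA and at 35.6, 34.2 and 34.8 after BCRP siRNA (log2 difference 0.41, SE 0.04, limma adjusted p = 0.000156). PFKM rose from 21.5, 21.9 and 21.2 FPKM to 27.1, 27.8 and 28.3 (0.35, SE 0.03, limma adjusted p = 6.7e-05). Neither pair of groups overlapped. PFKL stood at 29.63, 29.52 and 28.95 FPKM against 29.8, 27.5 and 27.0, which overlapped through SK/EPI-siBCRP replicate 1 (-0.06, 95% interval -0.15 to 0.03, limma adjusted p = 0.234). Without that library PFKL was called lower (-0.10, limma adjusted p = 0.0209).

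PFKP thus made up 52.3% of summed phosphofructokinase FPKM in SK-BR-3, 34.2% in SK/EPI, 33.8% in SK/EPI-siNC and 38.4% in SK/EPI-siBCRP. The share of PFKM was 16.6%, 28.3%, 28.0% and 30.6%, and that of PFKL 31.1%, 37.6%, 38.2% and 31.0%. After BCRP siRNA the share of PFKL fell by 7.21 points, that of PFKP was 4.63 points higher and that of PFKM 2.57 points higher, each with no overlap (two-sided exact permutation test, p = 0.1, the smallest possible). The summed level of the family was 105.4 ± 2.09 FPKM in SK-BR-3, 60.4 ± 0.988 in SK/EPI, 76.9 ± 1.90 in SK/EPI-siNC and 90.7 ± 1.60 in SK/EPI-siBCRP.

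PFKFB3 (ENSG00000170525, chr10:6144934-6254644, plus strand), whose product has a kinase activity far above its phosphatase activity, stood at 25.8, 25.9 and 25.3 FPKM in SK-BR-3 and at 7.71, 7.93 and 7.69 in SK/EPI (log2 difference -1.60, SE 0.03). It was lower again after BCRP siRNA, at 4.41, 4.24 and 4.06 FPKM against 5.16, 5.92 and 5.98 with control siRNA, with no overlap (-0.35, SE 0.06, limma adjusted p = 0.00366).

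PFKFB2 (ENSG00000123836, chr1:207034366-207081024, plus strand), the heart type, stood at 5.65, 5.68 and 5.82 FPKM in SK-BR-3 and 5.95, 5.82 and 5.74 in SK/EPI, which overlapped (0.03, SE 0.04). It had the largest rise of the members after BCRP siRNA, from 6.58, 6.57 and 6.93 FPKM to 10.07, 10.95 and 10.05 (0.56, SE 0.04, limma adjusted p = 7.9e-05), or 1.55 times. PFKFB2 shares 3.09% of its exon bases with YOD1 on the opposite strand.

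PFKFB4 (ENSG00000114268, chr3:48517684-48562015, minus strand) was the least abundant of the 3 PFKFB members, at 1.92, 1.77 and 2.30 FPKM in SK-BR-3 and 0.735, 0.915 and 0.673 in SK/EPI (-0.75, SE 0.08). It stood at 1.17, 1.28 and 1.25 FPKM with control siRNA and 1.66, 1.73 and 1.46 after BCRP siRNA (0.23, SE 0.06, limma adjusted p = 0.022). The groups did not overlap. This call was lost without SK/EPI-siBCRP replicate 1 or 2 or SK/EPI-siNC replicate 1 or 3 (limma adjusted p from 0.0538 to 0.0706) and with no filter on low genes (0.108).

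The PFKFB transcript that was highest by FPKM therefore differed between groups. PFKFB3 made up 76.9% of the summed FPKM of PFKFB2, PFKFB3 and PFKFB4 in SK-BR-3, 54.0% in SK/EPI, 41.7% in SK/EPI-siNC and 26.2% in SK/EPI-siBCRP. PFKFB2 made up 17.1%, 40.6%, 49.2% and 63.9% in the same order. By reads PFKFB2 was already ahead of PFKFB3 in SK/EPI, at 3359 against 2681 summed over the libraries. After BCRP siRNA the PFKFB2 share was 14.7 points higher and the PFKFB3 share 15.6 points lower, with no overlap (two-sided exact permutation test, p = 0.1, the smallest possible). Summed levels of the 3 genes were 33.4 ± 0.0199, 14.4 ± 0.281, 13.6 ± 0.641 and 16.2 ± 0.677 FPKM in the same order. The fourth gene, PFKFB1, was at a mean of at most 0.572 FPKM in every group.

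**Figure D3:**
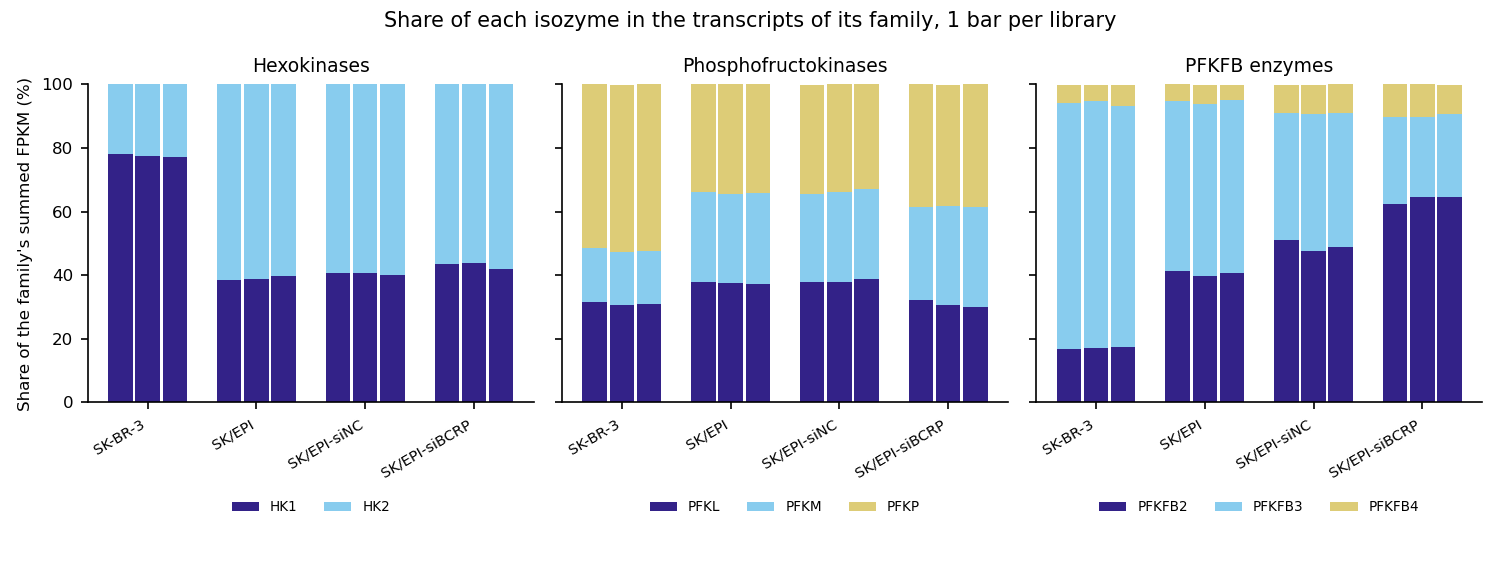
Share of each isozyme gene (vertical axis, % of the summed FPKM of its family) in each of the 12 libraries (1 bar each, grouped by cell group) for hexokinases, phosphofructokinases and PFKFB enzymes. The HK2 share averages 22.4% in SK-BR-3 and 61.0% in SK/EPI, and the PFKFB2 share rises from 49.2% in SK/EPI-siNC to 63.9% in SK/EPI-siBCRP.

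The question of the siRNA comparison was what differed in the resistant cells after transfection with the BCRP siRNA. A single siRNA sequence is listed for this RNA-seq, so loss of BCRP and other effects of that siRNA cannot be told apart. The paper reports slower proliferation and more apoptosis of these cells after BCRP silencing. The part of those in the values was not tested. Of the 9 members tested there, PFKFB2, PFKP, PFKM and PFKFB4 were called higher, PFKFB3, SLC2A1 and HK2 lower, and HK1 and PFKL neither. Over all 16298 genes of that table, 38.1% were called, 19.4% higher and 18.7% lower. The median log2 difference was 0.06 over the 9 members and 0.00 over all tested genes. None of the 9 reached a log2 difference of 1 in size. PFKP and PFKFB4 were lower in SK/EPI than in SK-BR-3 and higher after BCRP siRNA than with control siRNA, whereas SLC2A1, HK2 and PFKFB3 were lower in both comparisons.

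**Figure D4:**
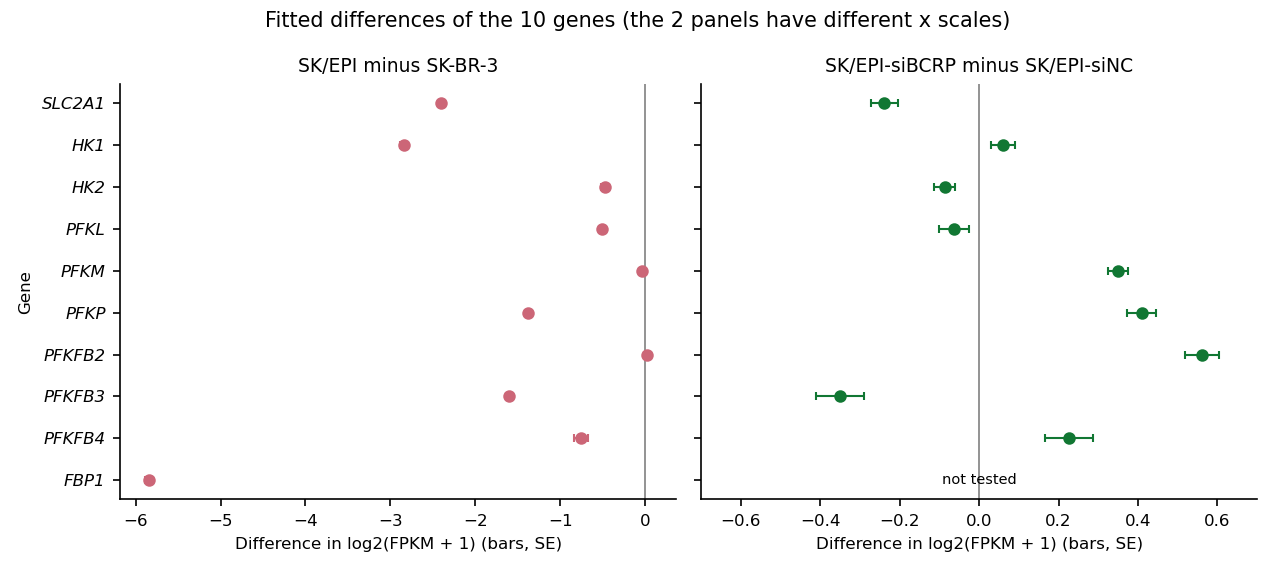
Difference in log2(FPKM + 1) (horizontal axis, bars are SE) of each member (rows) in SK/EPI against SK-BR-3 (left, a description of the comparison that chose FBP1) and in SK/EPI-siBCRP against SK/EPI-siNC (right), on different scales. Left values run from -5.84 (FBP1) to 0.03 (PFKFB2), and right values from -0.35 (PFKFB3) to 0.56 (PFKFB2).

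The untreated and the transfected cells were sequenced into different tables, so their levels can only be set side by side. Mean levels of HK1, HK2, PFKL, PFKM, PFKP, PFKFB2, PFKFB4 and SLC2A1 were higher in SK/EPI-siNC than in SK/EPI, for example 30.5 against 24.0 FPKM for HK2 and 1.23 against 0.774 FPKM for PFKFB4, whereas PFKFB3 was at 5.68 against 7.78 FPKM. The ratios were unequal between genes, and the PFKFB3 share of PFKFB transcripts, which does not depend on scaling, was 54.0% ± 0.498 (SD, n = 3) in SK/EPI and 41.7% ± 1.58 in SK/EPI-siNC. No test was run across the tables, and transfection cannot be told apart from other differences between the 2 sets of cultures.

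Other members of these gene families were also expressed. Of 19 such genes, 11 were tested in SK/EPI against SK-BR-3, and 7 were called higher and 4 lower. This count and those of the lists below stand beside 37.9% higher and 37.0% lower over all tested genes. After BCRP siRNA the shares over all tested genes were 19.4% and 18.7%. SLC2A3, the gene of the high-affinity transporter GLUT3, stood at 0.440, 0.288 and 0.298 FPKM in SK-BR-3 and at 28.2, 29.1 and 28.1 in SK/EPI, with no overlap (log2 difference 4.46, SE 0.06, limma adjusted p = 5.14e-10). Its near-identical copy SLC2A14 averaged at most 0.279 FPKM in any group, and how the counting split reads between them is not known. SLC2A4, of the insulin-responsive transporter GLUT4, rose from 0.613 to 2.20 FPKM and SLC2A6 from 4.50 to 7.32 FPKM. SLC2A10 fell from 5.70 to 0.0892 FPKM, SLC2A12 from 3.02 to 0.644, SLC2A13 from 1.13 to 0.330 and SLC2A8 from 6.46 to 4.62. SLC2A12 shares 38.9% of its exon bases with TBPL1 on the opposite strand. SLC2A11 rose from 1.89 to 2.29 FPKM.

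SLC2A1 was 99.6% of the summed FPKM of SLC2A1 and SLC2A3 in SK-BR-3 and 36.6% ± 0.742 (SD, n = 3) in SK/EPI, a share computed after the values were seen. The sum of both genes was 91.5 ± 1.60 FPKM against 44.9 ± 0.663. In the siRNA table SLC2A1 was 39.9% ± 0.867 of the sum with control siRNA and 40.0% ± 0.436 after BCRP siRNA, and these overlapped. SLC2A3 fell alongside SLC2A1 there, from 28.98, 30.06 and 30.14 FPKM to 24.7, 24.4 and 25.7 (-0.25, SE 0.03, limma adjusted p = 0.000528). SLC2A6 rose after BCRP siRNA, from 11.8 to 15.1 FPKM (0.33, SE 0.03, limma adjusted p = 8.71e-05).

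Of the direct partners of the node, GPI, which makes fructose 6-phosphate from glucose 6-phosphate, fell from 79.0 to 38.6 FPKM in SK/EPI (log2 difference -1.01, SE 0.05, limma adjusted p = 7.14e-07). The aldolase genes split the product of phosphofructokinase. ALDOA was lower in SK/EPI (-1.26, SE 0.09, limma adjusted p = 4.45e-06), although 42.3% of its exon bases are shared with another gene of the same strand and its level is uncertain. ALDOC was higher, from 18.2 to 23.7 FPKM (0.36, SE 0.06, limma adjusted p = 0.000837). TXNIP, whose product restrains glucose uptake, rose from 19.1 to 62.4 FPKM (1.66, SE 0.05, limma adjusted p = 2.25e-08), and ADPGK, whose product phosphorylates glucose with ADP, rose from 8.69 to 10.6 FPKM. TIGAR, a fructose bisphosphatase for the 2,6-form, averaged at most 0.609 FPKM in any group. It shares 42.6% of its exon bases with another gene of the same strand, so its level is uncertain too.

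After BCRP siRNA, 4 of the 6 partners tested were higher and 1 lower. GPI rose from 48.1 to 62.7 FPKM (0.38, SE 0.02, limma adjusted p = 3.08e-05), ALDOC from 36.4 to 50.7 (0.47, SE 0.03, limma adjusted p = 4.21e-05) and ADPGK from 6.29 to 8.09 FPKM (0.32, SE 0.04, limma adjusted p = 0.000948). ALDOA also rose (0.23, SE 0.05, limma adjusted p = 0.00749), with the same limit. TXNIP fell from 86.8 to 70.1 FPKM (-0.30, SE 0.03, limma adjusted p = 0.000268).

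Downstream of the node, 10 of 11 genes from TPI1 to LDHB were tested in each table. In SK/EPI 7 were lower, led by LDHA (258.9 to 99.3 FPKM, log2 difference -1.37, SE 0.04) and PGK1 (149.5 to 72.6 FPKM, -1.03, SE 0.04), and 2 were higher, the enolase genes ENO2 and ENO3. After BCRP siRNA 6 were higher, led by PGAM1 (93.2 to 133.8 FPKM, 0.52, SE 0.02) and LDHB (5.16 to 6.82 FPKM, 0.35, SE 0.06), and LDHA alone was lower (125.9 to 106.7 FPKM, -0.24, SE 0.03). The median log2 difference of this list was -0.35 in the first comparison and 0.20 in the second, beside 0.01 and 0.00 over all tested genes. Several of these genes have processed pseudogenes, and how reads were split among copies is not known. LDHB shares 33.4% of its exon bases with another gene of the same strand, so its level is uncertain.

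Of the gluconeogenesis genes other than FBP1, 5 of 7 were tested. PCK2, the mitochondrial phosphoenolpyruvate carboxykinase, was higher in SK/EPI (8.63 to 15.9 FPKM, log2 difference 0.81, SE 0.04), and PC, G6PC3 and SLC37A4 were lower by between 0.13 and 0.38 on the log2 scale. The cytosolic form PCK1 averaged at most 0.00771 FPKM in any group. After BCRP siRNA MDH1 was higher (30.9 to 43.2 FPKM, 0.47, SE 0.02) and PC lower (17.3 to 15.5 FPKM, -0.15, SE 0.03).

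The branches that leave the node held genes called in both directions. In the hexosamine branch, which starts from fructose 6-phosphate, 2 of 6 genes were higher in SK/EPI and 3 lower. GFPT2, a rate-limiting amidotransferase, went from 0.179 to 12.6 FPKM (3.53, SE 0.06, limma adjusted p = 1.54e-09), and PGM3 fell from 8.78 to 2.19 (-1.62, SE 0.05, limma adjusted p = 5.5e-08). In the pentose phosphate pathway 2 of 7 tested genes were higher and 4 lower, among them TALDO1, the transaldolase gene, from 88.6 to 57.8 FPKM (-0.61, SE 0.03). The count of higher pentose phosphate genes was 1 without SK-BR-3 replicate 1 or 2 or any SK/EPI library. Of 10 glycogen genes 4 were higher, such as PYGL (17.9 to 28.9 FPKM), and 3 lower, such as PYGB (47.26 to 28.998 FPKM). Of 7 genes of fructose, mannose and polyol metabolism 2 were higher, with AKR1B1, aldose reductase, going from 0.0617 to 5.97 FPKM (2.71, SE 0.06), and 5 lower.

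After BCRP siRNA the calls in these branches also went both ways. Of 6 hexosamine genes 2 were higher and 1 lower, of 7 pentose phosphate genes 3 higher and 2 lower, of 10 glycogen genes 2 higher and 2 lower, and of 7 genes of fructose, mannose and polyol metabolism 3 higher and 2 lower. Some of these counts rested on single libraries. Only 1 pentose phosphate gene was higher without SK/EPI-siBCRP replicate 1 or SK/EPI-siNC replicate 2 or 3, and 1 lower without SK/EPI-siBCRP replicate 1 or 3 or any SK/EPI-siNC library. The lower count was 1 for glycogen without SK/EPI-siBCRP replicate 1 or SK/EPI-siNC replicate 2 or 3, 1 for fructose, mannose and polyol genes without SK/EPI-siBCRP replicate 2 or SK/EPI-siNC replicate 2, and 0 for hexosamine without SK/EPI-siNC replicate 2. KHK, the fructokinase gene, rose from 1.48 to 2.85 FPKM (0.63, SE 0.09, limma adjusted p = 0.00131) and AKR1B1 from 3.44 to 5.19 FPKM (0.48, SE 0.08, limma adjusted p = 0.00229). KHK shares 23.8% of its exon bases with CGREF1 on the opposite strand, which averaged 12.2 FPKM over the siRNA libraries. The largest change among the pentose phosphate genes was that of PGLS (-0.17, SE 0.06, limma adjusted p = 0.0451).

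Of 12 other HIF target genes, 8 were lower in SK/EPI and 3 higher. CA12 fell from 17.6 to 0.132 FPKM (-4.04, SE 0.06), NDRG1 from 68.0 to 5.55 (-3.40, SE 0.03), P4HA1 from 72.3 to 28.5 (-1.31, SE 0.04) and PDK1, which inhibits pyruvate dehydrogenase, from 2.08 to 0.346 (-1.19, SE 0.06). CA9, at a low level in both lines, fell from 1.08 to 0.0625 FPKM (-0.97, SE 0.08). VEGFA, ADM and DDIT4 were higher, VEGFA from 7.03 to 13.8 FPKM. CA9 shares 38.5% of its exon bases with ARHGEF39, and DDIT4 41.2% with DDIT4-AS1, both on the opposite strand. After BCRP siRNA, of 11 tested, VEGFA (20.9 to 28.9 FPKM, 0.45, SE 0.02) and CA9 (1.52 to 2.70 FPKM, 0.56, SE 0.13) were higher, and NDRG1 (-0.35), PDK1 (-0.33), ADM (-0.30) and DDIT4 (-0.24) were lower.

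Among 13 tested regulators of these genes, 7 were higher and 6 lower in SK/EPI. HIF1A, the oxygen-regulated subunit of HIF, rose from 25.4 to 54.5 FPKM (1.07, SE 0.04, limma adjusted p = 9.95e-08), while its relative EPAS1 was at 54.4 against 32.9 FPKM (-0.71, SE 0.03, limma adjusted p = 5.28e-07). SNAI1, a repressor known to act on the FBP1 promoter in basal-like breast cancer, rose from 1.67 to 6.78 FPKM (1.54, SE 0.09, limma adjusted p = 1.19e-06), and its known partner EHMT2, the G9a methyltransferase, from 9.51 to 12.3 FPKM (0.34, SE 0.03, limma adjusted p = 4.23e-05). AKT1 fell from 24.7 to 11.2 FPKM. Their part in the FBP1 level was not tested. After BCRP siRNA 3 of 14 were higher and 4 lower, or 2 lower without SK/EPI-siBCRP replicate 1 or 2 or SK/EPI-siNC replicate 3. PRKAA1, a catalytic subunit of the energy sensor AMPK, fell from 30.8 to 20.7 FPKM (-0.55, SE 0.02, limma adjusted p = 6.81e-06), MLXIPL, the carbohydrate-responsive factor ChREBP, rose from 5.56 to 7.41 (0.36, SE 0.05, limma adjusted p = 0.00181), and SNAI1 stood at 7.55 against 7.24 FPKM (-0.05, 95% interval -0.27 to 0.17, limma adjusted p = 0.698).

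**Figure D5:**
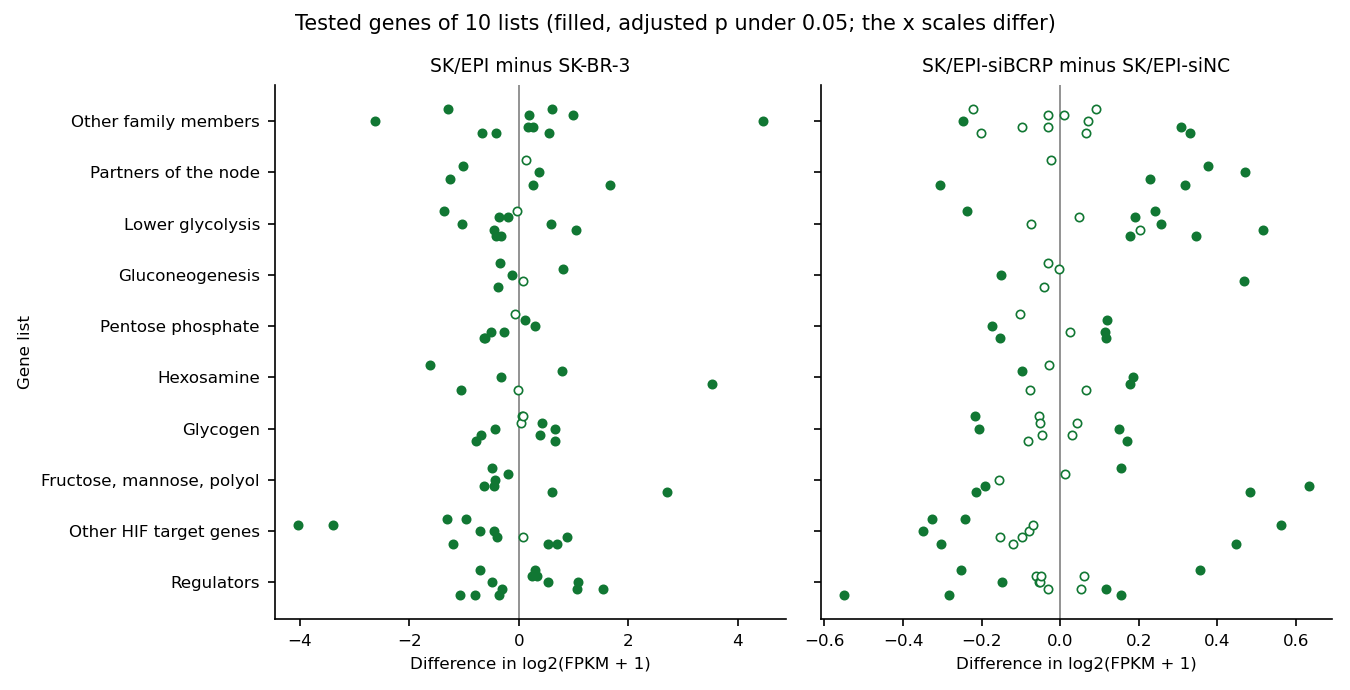
Difference in log2(FPKM + 1) (horizontal axis, scales differ) of every tested gene of 10 lists around the node (rows) in SK/EPI against SK-BR-3 (left) and SK/EPI-siBCRP against SK/EPI-siNC (right), filled where the limma adjusted p was under 0.05. Lower glycolysis holds 7 lower and 2 higher genes on the left and 1 lower and 6 higher on the right, and SLC2A3 is the point farthest right on the left panel at 4.46.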

How the data were processed

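RNA was poly-A selected, libraries were made with a kit that does not mark strand, and the submitters' processing notes name HISAT2 2.0.5, featureCounts 1.5.0-p3, DESeq2 1.16.1 and hg38. The strand setting and annotation are not given in the sources used here. Values deposited by the authors, in 2 tables of 58735 genes and 6 libraries each, carry no stated unit and were read as FPKM from their steps, which scale with exon length, and 0 sample columns were left unused. Reads per gene were recovered from the steps of the FPKM values (tolerance 0.05 reads) with the exon lengths of GENCODE 29. Libraries were grouped by the labels. The chi-square per degree of freedom between replicate pairs was 1.64 to 4.27, so no library was counted as a repeat. A gene was tested if 3 libraries held 10 reads or more, scaled to the median library size, and all libraries together 15, per table, with limma 3.58.1 (eBayes with a trend, R 4.3.3) on log2(FPKM + 1), with Benjamini-Hochberg adjustment over all tested genes at a threshold of 0.05. Errors are SE of the fit or SD over libraries. Isozyme shares within a library were compared with two-sided exact permutation tests in scipy 1.17.1. Counting intervals are exact at 95% and cover counting error only. The steps were tested on simulated data. Alternatives were a pseudocount of 0.1, other filters, equal FPKM sums, mitochondrial genes left out, voom, a replicate block and leaving out each library.

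The members and lists were chosen with earlier results of these data known. Named were all members, family members and partners with a mean of at least 1 FPKM in a group, up to 4 genes with the largest called change per list, PCAT7, ABCG2, genes within 1 Mb of FBP1 and the 5 most like it. FBP2, PFKFB1, SLC2A14, TIGAR, PCK1, ENO2, DDIT4, EHMT2 and the smaller changes given in a clause were named after their values were seen. Some genes of the lists are not reported here by name.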

Additional observations from a re-analysis of the deposited data

How the results depend on the processing

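Counts of genes called at an adjusted p under 0.05 stayed within 1.5 times of the main count under every alternative run, except with a log2 difference of at least 1 in size, which left 2278 of 11854 genes in SK/EPI against SK-BR-3 and 67 of 6215 after BCRP siRNA. The counts of members called after BCRP siRNA ranged from 3 to 4 higher and 2 to 4 lower over the settings run for them, which do not include the limit on the log2 difference, a size that no member reached there. Shares computed from reads in place of FPKM changed by -13.1 points for PFKFB3 and 0.149 points for PFKFB4 after BCRP siRNA. By construction, reads give longer transcripts more weight. Over the other gene lists, 8 counts in the first comparison and 21 in the second moved by more than 1.5 times, all of them counts of small size, while 192 and 179 did not. PFKL was called lower with voom on the reads (adjusted p = 0.0435), and the cause was not tested.

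With the replicate block, limma called 5889 genes higher and 5767 lower in SK/EPI and 2896 and 2744 after BCRP siRNA, and HK2 was no longer called (limma adjusted p = 0.0832). Same-numbered libraries shared only a number: their deviations from the group means correlated at -0.0485 to -0.00201 in the first table and 0.00923 to 0.0551 in the second. Comparisons of FBP1 outside SK-BR-3 are limited by its few reads, at most 6 in each library. Library depth in those groups was 17078952 to 20545811 reads, against 15830381 to 19051182 in SK-BR-3. Voom moved the median log2 difference of all genes in SK/EPI from 0.01 to 0.10, and that of PFKM from -0.04 to 0.05. Reads assigned to genes were 99.8% to 101.0% of the library total implied by the FPKM steps in SK-BR-3. In SK/EPI they were 92.8% to 95.4%. The part of this difference in the shift was not tested.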
